A study of Mus musculus with 8 samples.

Results

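The genes described here are the 62 entries of the mouse gene tables whose symbols begin with Hist1h, Hist2h, Hist3h or Hist4h, the clustered genes of the linker histone H1 and the core histones H2A, H2B, H3 and H4. The rule that finds them among 19276 entries uses the symbol alone. Leaving 3 testis forms apart, they comprise 5 H1, 14 H2A, 16 H2B, 11 H3 and 13 H4 genes, and 50 of the 62 symbols begin with Hist1h. The testis forms are Hist1h1t, the linker histone H1t of spermatocytes and early spermatids, and Hist1h2aa and Hist1h2ba, the testis core histones TH2A and TH2B.

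Clustered histone genes are transcribed as cells copy their DNA, and their messages are unlike other mRNAs in that they usually carry no poly(A) tail and end just behind a short stem-loop that the stem-loop binding protein, encoded by Slbp, holds through processing, translation and decay. In the testis, H1t, TH2A and TH2B are made in meiotic cells and are removed later, when protamines replace most histones in elongating spermatids. RNF17 is a Tudor domain protein of germ cells, a family that binds methylated PIWI proteins and other partners in cytoplasmic granules.

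Total RNA was sequenced from testes of 6-week-old C57BL/6 mice and from material that the antibody named RNF17 1774 pulled out of testis lysate. Heterozygous RNF17 testes (het testis), homozygous RNF17 testes (hom testis), the antibody pulldown from heterozygotes (het IP) and that from homozygotes (hom IP) have 2 libraries each. The nature of the allele is not stated in the labels, nor whether any libraries share a mouse. The replicates may therefore be technical, and p-values measure only how far these samples scatter. Not-so-random primers were used in place of oligo(dT), so a poly(A) tail is not needed for a message to be read, and gel-purified products of a fixed size range were sequenced.

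Gene reads per library ran from 5661754 to 50575649, and histone reads from 1826 to 43004. Levels below are CPM, read counts scaled to 1 common library size by TMM over the 8 libraries, unless another scale is named. The transcript of Rnf17 itself was at 511 and 561 CPM in het testis and at 50.7 and 98.9 in hom testis on the scale of that comparison, a log2 fold change of -2.84 ± 0.61 (SE) with adjusted p = 0.139 by edgeR. On the scale of the IP libraries it was at 1283 and 1213 CPM in het IP and at 206.6 and 375 in hom IP, a log2 fold change of 2.10 ± 0.27 with adjusted p = 0.000185, so Rnf17 reads were present in all 8 libraries. All 14 markers listed for elongating spermatids and all 12 for round spermatids had reads in every library, and of 14 spermatogonial markers Nanos2 and Nanos3 were at 0 in some. Insl3, a defining Leydig cell marker and 1 of 8 listed, and the 4 globin genes of 6 genes listed for blood were at 0 in all 8 libraries. The other Leydig markers had reads in every library, as did Alas2 and Ptprc of the blood list. Testis pieces mix cell types, and fewer cells of a type cannot be told apart from less RNA per cell.

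The stem-loop was looked for in the GENCODE M21 transcripts of all 62 genes by the consensus of the histone stem-loop, with 6-base arms that pair in full around a 4-base loop. It was present in 43 of the 62 genes and in 27 of 21890 other protein-coding genes, a share of 0.123%. Of the 19 genes without a match, 13 have an annotated transcript that stops within 20 bases of the stop codon, among them Hist1h2aa, Hist1h2ba and Hist1h4k, so the window that would hold a stem-loop is not in the annotation. The sequences below are shown because the letters of the stem divide the H4 genes from the other types. Capitals mark the 2 arms of the stem and lower case the loop, in DNA letters, 5′ to 3′.
Hist3h2a and 22 other H1, H2A, H2B and H3 genes: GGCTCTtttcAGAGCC
Hist1h1t, Hist1h2bb, Hist1h2bk and 3 H3 genes: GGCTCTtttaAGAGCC
Hist1h4d, Hist1h4h, Hist4h4 and 4 other H4 genes: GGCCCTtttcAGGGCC
Hist1h4j and Hist1h4b: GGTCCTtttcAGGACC
None of the 12 H4 stem-loops found carried the GGCTCT arm of the other types. In the annotation the stem-loop lay within 60 bases of the transcript's end in 18 of the 42 genes with a distance, and over 300 bases from it in another 18, among them Hist3h2a, Hist1h1c and Hist4h4, whose annotated transcripts run on past the stem-loop.

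Copies of a histone type are much alike, and this bears on how reads are assigned to them. A 50-base stretch of one gene's transcript was counted as shared when the same letters occur in a transcript of another gene. Over 50% of the transcript was shared in 28 of the 62 genes and under 10% in 8. Reads summed over the 8 libraries had a median of 33 in the 28 most shared genes, 68.5 in the 26 genes between, and 1150 in the 8 least shared. Across the 62 genes the share and the read total had a Spearman rho of -0.365, given as a description, since genes of a type share sequence. The treatment of reads that match several genes is not stated in the labels, so values of single copies are uncertain and sums over a type are given beside them.

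**Figure D1:**
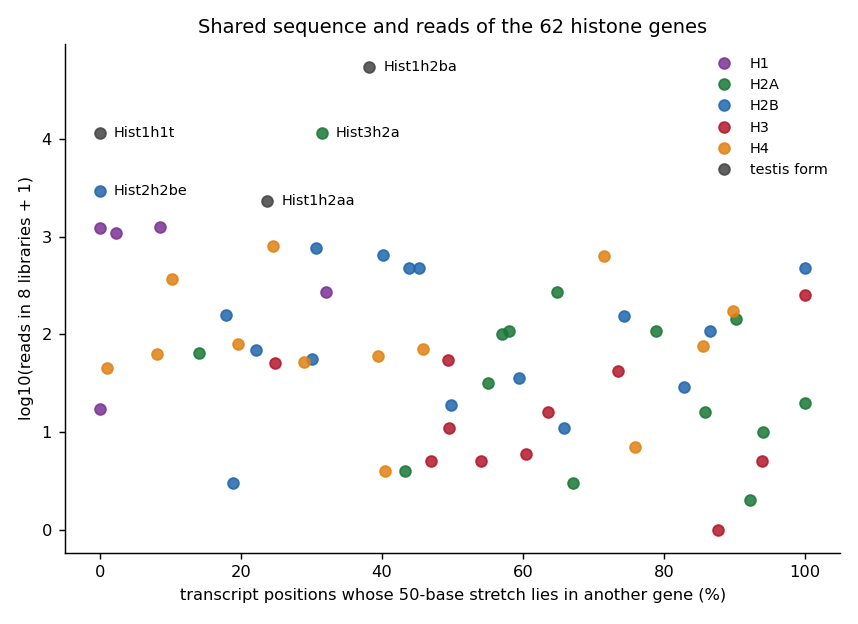
Each point is 1 of the 62 histone genes, coloured by type. The x axis is the percentage of 50-base stretches of its longest annotated transcript that lie in another gene's transcript, and the y axis is log10 of its reads over the 8 libraries plus 1. Genes with more than 50% of their sequence shared reached at most 635 reads, and Hist1h2ba, with 54450 reads, had the most.

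Histone reads were dominated by the testis forms, which made up 50.4% to 78.7% of them in each library. Levels were set per 1000 coding bases. This scale leaves out the untranslated part of a transcript, which is long in the annotation of some genes (2146 bases in all against 393 coding for Hist3h2a and 2620 against 381 for Hist2h2be), so it overstates such genes where reads fall outside the coding part. On it the mean over the 8 libraries was 1179 CPM for Hist1h2ba, 290.3 for Hist3h2a, 172 for Hist1h1t, 69.8 for Hist2h2be and 46.8 for Hist1h2aa. The order within a library was not fixed: in the replicate 1 library of het testis, Hist1h1t stood at 13.8 CPM per 1000 coding bases and Hist2h2be at 22.8, and in the replicate 1 library of het IP they stood at 307 and 50.6. By this mean, which pools testis and IP libraries, the highest H1 gene outside the testis forms was Hist1h1a, with 18.4. In every testis library Hist1h1a was below Hist1h1c and Hist1h1d. Hist1h1a stood at 0.5192 and 7.701 in het testis and at 2.531 and 17.07 in hom testis. Hist1h1c stood at 8.607 and 13.57 in het testis and at 10.97 and 21.85 in hom testis. In every IP library Hist1h1a was above both, at 17.93 to 38.5. By the same mean the highest H4 genes were Hist1h4k and Hist1h4j, with 22.5 each. Of the H3 genes, only Hist2h3c1 had enough reads to be tested in any comparison, and its mean was 3.28. Lowest of their types by mean CPM among genes tested in some comparison, Hist1h1e had 2.36, Hist1h2ac 1.82 and Hist2h4 1.58 CPM per 1000 coding bases, and Hist1h3i had no read in any library. Hist3h2bb-ps, which has no coding length in the annotation, had the lowest mean of the H2B entries tested, with 55 reads in all.

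Hist3h2a needs care on another account. In the annotation it overlaps Trim17 on the same strand, and Trim17 had 1946 and 5087 reads in the het testis libraries and 493 and 2006 in the hom testis libraries. Reads of Hist3h2a were 652 and 1419 in het testis and 482 and 4461 in hom testis, or 109 and 96.1 CPM against 49.0 and 83.5. Trim17 took 0.0317% and 0.0256% of gene reads in het testis, 0.00679% and 0.00397% in hom testis, 0.0249% and 0.0235% in het IP and 0.00343% and 0.00374% in hom IP. Both genes thus had their lower testis values in homozygotes, and the part of Trim17 reads in the values of Hist3h2a was not tested. Hist1h2be and Hist1h1e overlap each other, and Hist1h2aa and Hist1h2ak each overlap a predicted gene on the other strand. Hist2h3c1 overlaps the predicted gene Gm20634 on the same strand, and 100% of its transcript is shared with other genes. The labels do not say whether counting used strand.

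The first comparison asks which histone messages differed between the pulldowns of the 2 genotypes, het IP against hom IP. Higher in het IP were 5 H4 genes, 5 H2B genes, 1 H2A gene, 1 H3 gene and TH2A, while H1t, TH2B and the 4 H1 genes tested did not pass. H4 genes summed to 58.3 and 68.1 CPM in the het IP libraries and to 15.1 and 1.0 in the hom IP libraries, from 623, 430, 80 and 6 reads. The het IP libraries were also above the 4 testis libraries, which ran from 3.0 to 19.3. The ratio of the group means was 2.97 on the log2 scale, and both het IP libraries lay above both hom IP libraries.

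Of the 62 histone genes, 27 had enough reads to be tested here, 13 were higher in het IP and 0 lower at an adjusted p under 0.05 by edgeR's quasi-likelihood test over 13427 genes. Among all genes tested, 17.7% were higher and 12.4% lower, or 2371 and 1671 genes. Scaled by library totals alone the split was 3145 and 832, with 16 histone genes higher and 0 lower. The filter keeps a low gene on the strength of the group where it is high. Neither the count nor the median over genes that passed it is evidence by itself. Without the filter, 19 of the 60 genes with a read were higher in het IP, against 15.4% of all 17878 genes. At an unadjusted p under 0.05 there were 16 of the 27, against 41.6% of all genes. The median log2 fold change of the 27 was 1.74, and that of all genes tested was 0.03. Of the 60 genes with a read, 38 had both het IP libraries above both hom IP libraries, where 32.3% of all entries did. Both were below in 1 histone gene, and the share of all entries with both below was not counted.

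**Figure D2:**
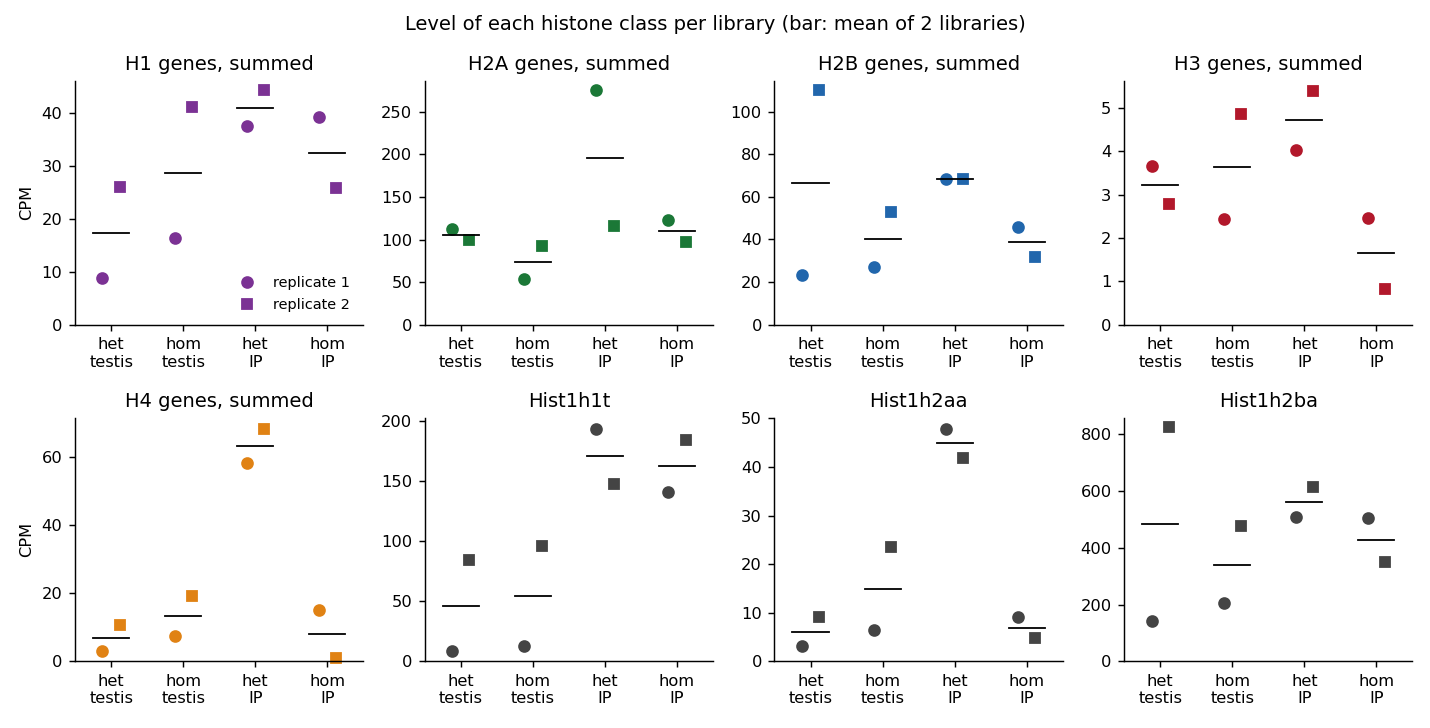
Each panel gives the level in CPM, on a linear axis from 0, of 1 histone type summed over its genes or of 1 testis form in the 8 libraries. Circles are replicate 1, squares replicate 2 and bars the mean of the 2 libraries. H4 genes and Hist1h2aa stand highest in the 2 het IP libraries, at 58.3 and 68.1 and at 47.9 and 41.8 CPM, and Hist1h1t is high in both kinds of IP library.

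Of the 13 H4 genes, 6 were tested and 5 were higher in het IP. Histone H4 pairs with H3 at the centre of the nucleosome. Hist1h4j was at 18.5 and 23.4 CPM in het IP and at 3.03 and 0 in hom IP, where 0 reads allow up to 0.501 CPM. Its log2 fold change was 3.92 ± 0.68 (SE), adjusted p = 0.00137 by edgeR. Hist1h4k was at 16.3 and 24.1 CPM in het IP and at 4.54 and 0 in hom IP, a log2 fold change of 3.27 ± 0.73 with adjusted p = 0.00612 by edgeR. The het IP libraries of both genes were far above either hom IP library, and the 2 hom IP libraries were themselves far apart. One hom IP library held no read of either gene, and the adjusted p by DESeq2 was 0.236 for Hist1h4j and 0.387 for Hist1h4k. Without that library, the replicate 2 library of hom IP, the log2 fold changes were 2.87 and 2.22, with adjusted p = 2.16e-05 and 0.000256 by edgeR.

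Hist1h4d had 59 and 76 reads in het IP and 14 and 4 in hom IP, a log2 fold change of 2.48 ± 0.60 and adjusted p = 0.00949 by edgeR. It lost the call without the replicate 2 library of het IP, at adjusted p = 0.0746. The other 2 that passed, Hist1h4h and Hist4h4, named here after their values were seen, had 2 reads or fewer in each hom IP library. H4 copies share sequence, with 71.5% of Hist1h4k found in other genes, so the 5 calls are not 5 independent measurements.

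Histone H2B was split between copies. Of 16 genes, 9 were tested and 5 were higher in het IP. Hist1h2bk had 45 and 15 reads in het IP and 3 and 2 in hom IP, a log2 fold change of 2.95 ± 0.67 with adjusted p = 0.00672 by edgeR. Hist1h2bb was at 17.1 and 7.92 CPM in het IP and 4.35 and 1.34 in hom IP, a log2 fold change of 2.26 ± 0.53 with adjusted p = 0.00782. Hist1h2bp had 80 and 55 reads in het IP and 18 and 8 in hom IP, a log2 fold change of 1.86 ± 0.47 with adjusted p = 0.0115. In these 3 genes both het IP libraries were above both hom IP libraries. Hist2h2be, the H2B gene with the most reads, was at 19.3 and 30.7 CPM in het IP and 24.2 and 20.9 in hom IP, where the groups overlapped and the log2 fold change was 0.22. Summed without Hist2h2be, H2B was at 49.0 and 37.7 CPM in het IP and at 21.8 and 10.8 in hom IP. Without the replicate 1 library of het IP, Hist1h2bb and Hist1h2bk lost the call, at adjusted p = 0.0998 and 0.207.

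H2A and H3 gave 1 call each. Hist1h2ak had 45 and 9 reads in het IP and 3 and 1 in hom IP, a log2 fold change of 3.06 ± 0.82 with adjusted p = 0.0156 by edgeR. That call was lost without the replicate 2 library of hom IP, at adjusted p = 0.0616. Hist3h2a, which holds most H2A reads, was at 259 and 106 CPM in het IP and 117 and 93.4 in hom IP, where 1 het IP library stood out and the groups overlapped. Its log2 fold change was 0.88 ± 0.33 with adjusted p = 0.0663 by edgeR, and DESeq2 gave an adjusted p of 0.0496. H2A summed without it was at 16.3 and 9.67 CPM in het IP and 5.87 and 4.17 in hom IP. Hist2h3c1 had 16 and 12 reads in het IP and 2 and 2 in hom IP, adjusted p = 0.036 by edgeR, and it passed with none of the 4 libraries left out, where adjusted p ran from 0.0826 to 0.303. The transcript of Hist2h3c1 is 100% shared with other genes, and the part of their reads in its values was not tested. H3 genes summed to 43 and 34 reads in het IP and 13 and 5 in hom IP.

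Of the 3 testis forms, 1 was called. Hist1h2aa (TH2A) was at 47.9 and 41.8 CPM in het IP and at 9.08 and 4.84 in hom IP, with 512, 264, 48 and 29 reads. Its log2 fold change of 2.78 ± 0.31 had the smallest adjusted p of the histone genes by edgeR, 6.37e-05, and DESeq2 gave 3.46e-12. Both het IP values were far above both hom IP values. Hist1h2ba (TH2B) was at 507 and 615 CPM in het IP and at 505 and 350.4 in hom IP, a log2 fold change of 0.47 ± 0.23 with adjusted p = 0.14. Hist1h2ba was called higher with library totals alone (0.73, adjusted p = 0.0354 by edgeR), with a replicate block (0.49, 0.038) and without the replicate 1 library of hom IP (0.73, 0.0235). The difference between the testis forms was not tested. Hist1h1t was at 194 and 148 CPM in het IP and at 141 and 185 in hom IP, and its log2 fold change was 0.16 ± 0.22 with adjusted p = 0.629. For TH2B the lower het IP value was next to the higher hom IP value, and for H1t the groups overlapped.

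H1 genes outside the testis forms gave no call. The one with the smallest p was Hist1h1e, with 20 and 14 reads in het IP and 4 and 4 in hom IP, a log2 fold change of 1.57 ± 0.62 and adjusted p = 0.0759 by edgeR. Scaled by library totals alone Hist1h1e was called higher, at 1.85 and adjusted p = 0.0464. Hist1h1a was at 19.4 and 24.7 CPM in het IP and at 21.0 and 11.5 in hom IP. Summed, the 5 H1 genes were at 37.7 and 44.4 CPM in het IP and at 39.4 and 25.9 in hom IP, so the groups overlapped.

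**Figure D3:**
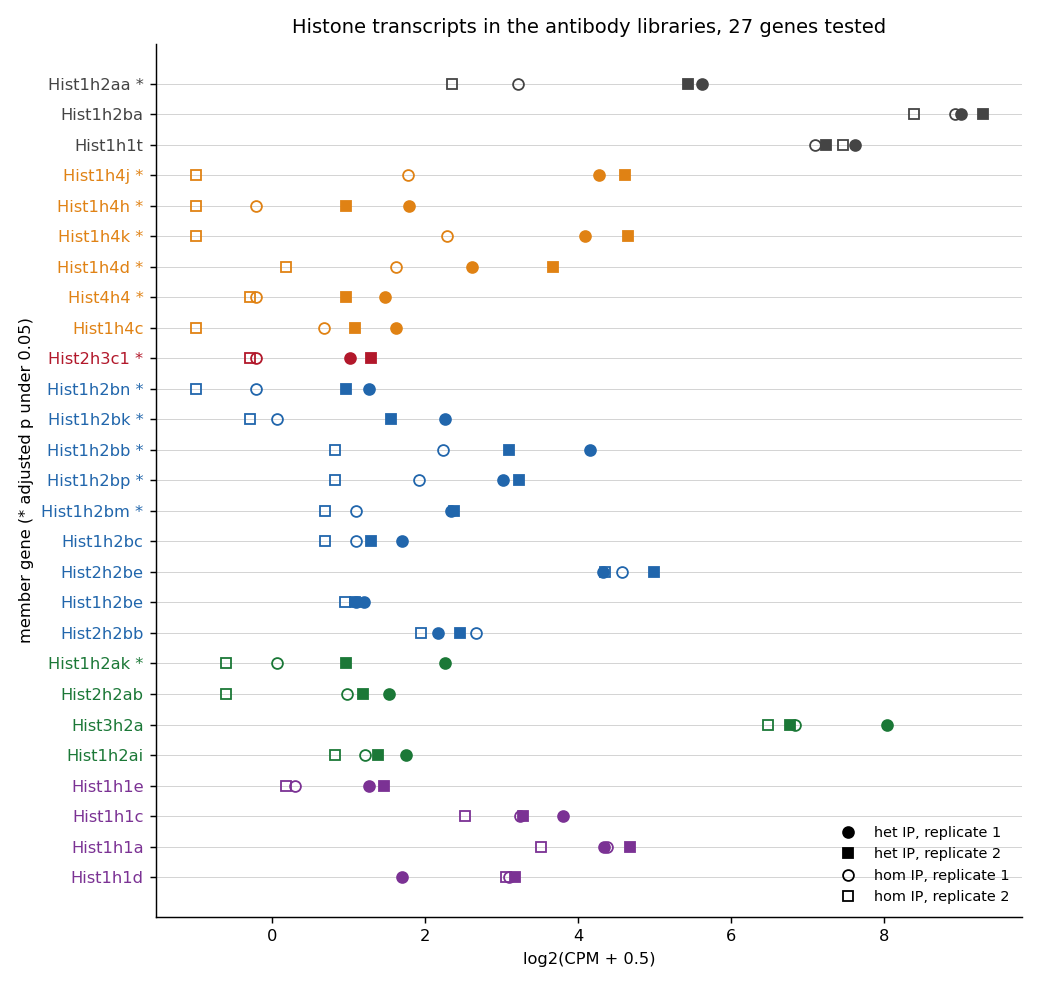
Each row is 1 of the 27 histone genes tested in het IP against hom IP, coloured by type, and the x axis is log2 of CPM, on library sizes scaled over the 4 IP libraries, plus 0.5. Filled symbols are het IP, open symbols hom IP, and an asterisk marks an adjusted p under 0.05. H4 genes show het IP to the right of hom IP, with 4 of the 6 at 0 reads in the replicate 2 library of hom IP, while Hist1h1t and Hist2h2be overlap.

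DESeq2 called 6 of the 60 histone genes with a read higher in this comparison, 5 of them also called by edgeR. Of all 17878 genes with a read it called 1926 higher. It gave an adjusted p to 13736 of all genes, of which 14% were higher, and to only part of the 60 histone genes. A fit over all 8 libraries, in which the wider spread of the testis libraries is shared, called 0 of 32 histone genes and 443 higher and 44 lower of all 14180 genes, and its adjusted p for Hist1h2aa was 0.0858. With 1 library left out the number of all genes called higher moved too. Without the replicate 1 library of het IP 5 histone genes were higher, beside 1482 of all 13514 genes, and without its replicate 2 there were 13, beside 1913 of 14172. Without the replicate 1 library of hom IP there were 23, beside 3026 of 14153, and without its replicate 2 there were 9, beside 2206 of 13758. Hist1h2aa, Hist1h2bp, Hist1h4j and Hist1h4k passed in each of these 4 fits.

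Other RNA differed between the same IP libraries. All 14 elongating spermatid markers were higher in het IP. On the scale of the IP libraries their summed level was 9541 and 9228 CPM against 1457 and 1625 in hom IP. Of 12 round spermatid markers 9 were higher, and the 12 summed to 2447 and 2326 against 1127 and 1013 on that scale. Of 13 meiotic prophase markers 3 were higher and 6 lower, of 12 pachytene markers 3 were higher and 1 lower, and of 11 spermatogonial markers 0 were higher and 2 lower. No marker of the spermatid, pachytene or meiotic lists was at 0 in an IP library. Of the markers of other cells, 0 of 10 Sertoli genes were higher and 1 lower, 0 of 7 Leydig genes higher and 3 lower, 1 of 6 myoid genes higher and 2 lower, 2 of 7 macrophage genes higher and 0 lower, 1 of 4 endothelial genes higher and 0 lower, and 0 of 2 blood genes in either direction. The part of these differences in the histone result was not tested. Nasp, which encodes a chaperone of H1 and of H3 and H4, took 1.57% and 2.27% of gene reads in het IP, 5.51% and 6.85% in hom IP, and 0.354% to 0.635% in the testis libraries.

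Genes that work with histone messages were taken as 3 lists. Of 27 genes for processing and turnover of histone mRNA, 2 were higher in het IP and 7 lower. Cstf2, a cleavage stimulation factor subunit, was higher, with a log2 fold change of 1.43 ± 0.23 and adjusted p = 0.000897 by edgeR, and Srrt, which links the RNA cap complex to processing, was lower, at -0.99 ± 0.22. Slbp, named here for its role after its value was seen, was the other that was higher, at 0.83 ± 0.20 and adjusted p = 0.00974. Zfp473, also named after its value was seen, was 1 of the 7 that were lower, at -1.22 ± 0.29 and adjusted p = 0.00837 by edgeR. Of 27 genes of DNA replication and S phase, 3 were higher, among them Fen1, the flap endonuclease, at 1.37 and Pcna, the sliding clamp of DNA polymerases, at 1.61, and 4 were lower. Of 20 histone chaperone genes, 0 were higher and 3 lower, among them Nasp at -1.96 ± 0.34 and Nap1l1, a chaperone of H2A and H2B, at -0.86 ± 0.20. The medians of the 3 lists were -0.25, -0.06 and -0.19, beside 1.74 for the histone genes. Low histone genes passed the filter through the group where they are high, so this contrast is a description.

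Annotated length was set beside the calls. A limit of 1000 bases, set after the values were seen, was applied to the longest GENCODE transcript. Of 17 tested histone genes below it, 10 were higher in het IP (58.8%), and of 10 at or above it 3 were higher (30%). The same division was present among all genes tested that have a length: 36.4% of 483 short ones and 15.8% of 11525 long ones were higher. The 3 long histone genes that passed were Hist1h4d, Hist4h4 and Hist2h3c1. Hist1h1c, Hist1h1d, Hist1h2bc, Hist1h2be and Hist2h2be, with annotated transcripts of 1156 to 7425 bases, were among those that did not.

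**Figure D4:**
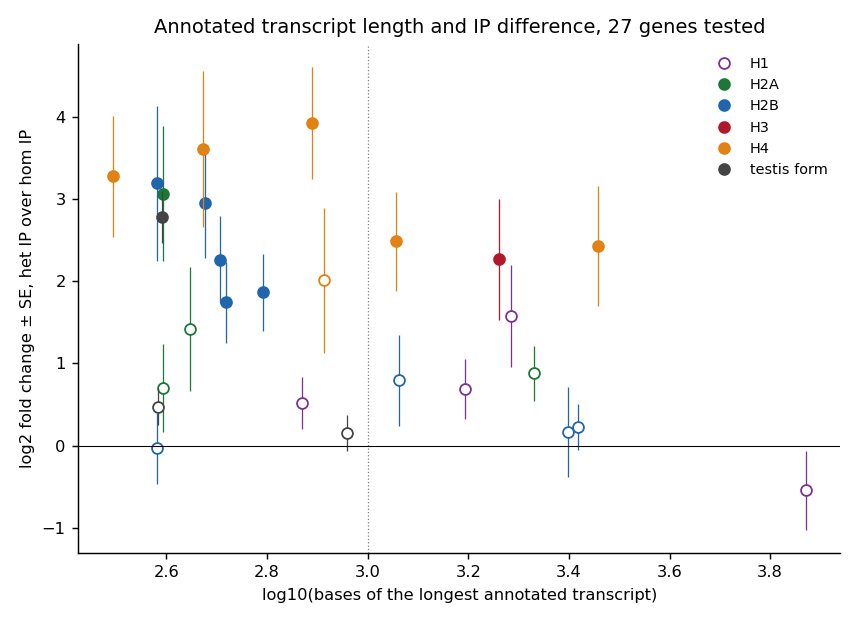
The 27 histone genes tested, by log10 of the bases in the longest annotated transcript (x axis) and log2 fold change ± SE of het IP over hom IP (y axis). Filled points had an adjusted p under 0.05, and the dotted line stands at 1000 bases. To the left of the line 10 of 17 genes passed, and to the right 3 of 10.

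TH2A and TH2B lie head to head, and their upstream sequence is shown because the stretch between their starts lies upstream of both, and 1 of the pair was called. By RefSeq their starts are 281 bases apart on opposite strands of chromosome 13. Capitals mark 3 motifs on either strand, known from histone promoters: the TATA box as TATAAA, the CCAAT box by its own letters and the octamer as ATTTGCAT. In this order they were found in 35, 47 and 14 of the 56 histone genes with a RefSeq promoter window (250 bases before to 50 after the start), and in 15.7%, 41.1% and 1.97% of all 27025 genes with one. The window of Hist1h2aa, GRCm38.p6 chr13:23934187-23934466, plus strand, is 250 bases before the start and 30 after, and it holds 2, 4 and 1 matches.
Hist1h2aa: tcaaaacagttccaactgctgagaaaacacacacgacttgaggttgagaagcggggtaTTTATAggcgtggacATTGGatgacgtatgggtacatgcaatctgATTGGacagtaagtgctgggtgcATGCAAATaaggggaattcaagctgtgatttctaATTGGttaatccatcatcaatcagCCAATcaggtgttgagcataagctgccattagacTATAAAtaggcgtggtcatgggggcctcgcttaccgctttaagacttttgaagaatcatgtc
The octamer was found in 7 of 15 H2A and 7 of 14 H2B windows and in none of the 6 H1, 9 H3 and 12 H4 windows, and CCAAT in 3 of 12 H4 windows. Of 12 head-to-head pairs with starts within 1000 bases in GENCODE, 2 had both genes tested in het IP against hom IP. Hist1h2ak and Hist1h2bn were both called higher, at 3.06 and 3.19, and of the TH2A and TH2B pair 1 was called.

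Hist1h4j and Hist1h4k, are also shown, since they had the highest mean levels of the H4 genes. Their windows were GRCm38.p6 chr13:21734784-21735063, plus strand, and chr13:21750524-21750803, minus strand. In a global alignment 255 of 294 columns were identical, or 86.7%, with columns that hold a gap counted as unlike. The stretch they share is shifted between the windows, so gaps at the ends lower this value. Each window held 1 TATAAA, 0 CCAAT and 0 ATTTGCAT.
Hist1h4j: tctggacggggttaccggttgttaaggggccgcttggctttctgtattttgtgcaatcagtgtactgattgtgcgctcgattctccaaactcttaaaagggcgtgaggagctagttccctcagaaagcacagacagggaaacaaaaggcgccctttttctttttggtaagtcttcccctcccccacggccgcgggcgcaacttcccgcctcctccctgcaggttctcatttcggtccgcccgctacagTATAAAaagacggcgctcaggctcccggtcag
Hist1h4k: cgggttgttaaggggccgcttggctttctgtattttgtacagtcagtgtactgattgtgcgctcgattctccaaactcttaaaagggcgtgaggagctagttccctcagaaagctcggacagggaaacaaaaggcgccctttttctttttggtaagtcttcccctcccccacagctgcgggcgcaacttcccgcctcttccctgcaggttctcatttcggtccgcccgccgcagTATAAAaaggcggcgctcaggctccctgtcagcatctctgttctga

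The second comparison sets the pulldown against testis RNA of the same genotype. In heterozygotes, 30 histone genes were tested and 0 passed edgeR's adjusted p under 0.05 in either direction, as did 0 of all 13562 genes (0% higher and 0% lower). At an unadjusted p under 0.05 there were 15 of the 30, against 18.1% of all genes, and here too low genes passed the filter through the group where they are high. DESeq2 called 5 of the 61 histone genes with a read higher, namely Hist1h1a, Hist1h2aa, Hist1h2bb, Hist1h4j and Hist1h4k. Of all 18123 genes with a read it called 245 higher. It gave an adjusted p to 12170 of all genes, of which 2.01% were higher, and to only part of the 61 histone genes. The median log2 fold change of the 30 was 1.96, and that of all genes was -0.04. Of the 61 histone genes with a read, 38 had both het IP libraries above both het testis libraries, where 26.8% of all entries did. Both were below in 1 histone gene, and the share of all entries with both below was not counted. The het IP libraries here are those of the first comparison, so the 2 sets of values are not independent.

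The H4 sums were 3.0 and 10.7 CPM in het testis and 58.3 and 68.1 in het IP, a log2 ratio of group means of 3.21. Hist1h4k, the H4 gene with the smallest p, was at 1.00 and 2.78 CPM in het testis and 16.3 and 24.1 in het IP, a log2 fold change of 3.40 ± 0.61 with adjusted p = 0.206 by edgeR and 0.000885 by DESeq2. Hist1h2aa was at 3.17 and 9.07 CPM in het testis and 47.9 and 41.8 in het IP, a log2 fold change of 2.91 ± 0.59 with adjusted p = 0.206 by edgeR and 0.00192 by DESeq2. Neither gene's groups overlapped.

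Hist1h1a was at 0.333 and 4.94 CPM in het testis and 19.4 and 24.7 in het IP, a log2 fold change of 3.05 ± 1.00 with adjusted p = 0.245 by edgeR and 0.0168 by DESeq2. Hist1h1t was at 8.67 and 84.2 CPM in het testis and 194 and 148 in het IP, with adjusted p = 0.336. The het testis libraries were far apart in each of these genes, with replicate 1 the lower. For Hist1h2ba the testis libraries lay on either side of the IP libraries, at 142 and 823 CPM against 507 and 615, and Hist2h3c1 had 21 and 28 reads in het testis and 16 and 12 in het IP. Hist2h2ab and Hist3h2bb-ps, with the smallest p of the H2A and H2B genes, had 0 and 1 read in het testis, too few for a fold change, and 25 and 11 and 13 and 10 reads in het IP.

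Leaving out either het testis library changed the count of calls, for all genes as for histone genes. Without replicate 1, edgeR called 23 of 38 histone genes higher and 2 lower, beside 2791 higher and 3096 lower of all 14439 genes. Without replicate 2 it called 25 of 34 higher and 1 lower, beside 3732 higher and 3546 lower of 13892. Without either het IP library it called 0 histone genes. These fits assume that the lone testis library varies like the 2 IP libraries.

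In homozygotes, 21 histone genes were tested and 0 were higher in hom IP, where 1.84% of all 13334 genes were, and 1 was lower, where 1.45% were. All genes split into 245 higher and 193 lower, and into 231 and 893 when scaled by library totals alone, which called 2 histone genes lower. At an unadjusted p under 0.05 there were 3, against 22.7% of all genes, and the median log2 fold change was -0.29 beside -0.02 for all genes. The gene that was lower is Hist1h2bc, an H2B gene, at 8.41 and 8.62 CPM in hom testis and 1.74 and 1.20 in hom IP on the scale of that comparison. Its log2 fold change was -2.54 ± 0.61 with adjusted p = 0.0447 by edgeR and 0.00494 by DESeq2. The call was lost without either hom IP library, at adjusted p = 0.153 and 0.452, and in the fit over 8 libraries, at 0.112. In heterozygotes Hist1h2bc had 36 and 137 reads in testis and 29 and 12 in IP, a log2 fold change of -1.67 ± 0.50 with adjusted p = 0.228.

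The H4 sums were 7.5 and 19.3 CPM in hom testis and 15.1 and 1.0 in hom IP, so the groups overlapped. Hist1h2aa was at 6.50 and 23.5 CPM in hom testis and 9.08 and 4.84 in hom IP, a log2 fold change of -1.13 ± 0.63 with adjusted p = 0.303 by edgeR. Hist1h1t was at 13.0 and 96.4 CPM in hom testis and 141 and 185 in hom IP, a log2 fold change of 1.56 ± 0.67 with adjusted p = 0.196. In this gene both hom IP libraries were above both hom testis libraries, as both het IP libraries were above both het testis libraries. Hist3h2a was at 49.0 and 83.5 CPM in hom testis and 117 and 93.4 in hom IP, with adjusted p = 0.333, and Hist2h3c1 had 19 and 154 reads in hom testis and 2 and 2 in hom IP, with adjusted p = 0.0835. Of the 56 histone genes with a read, 8 had both hom IP libraries above both testis libraries and 8 had both below, where 23.6% and 27.3% of all entries did.

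**Figure D5:**
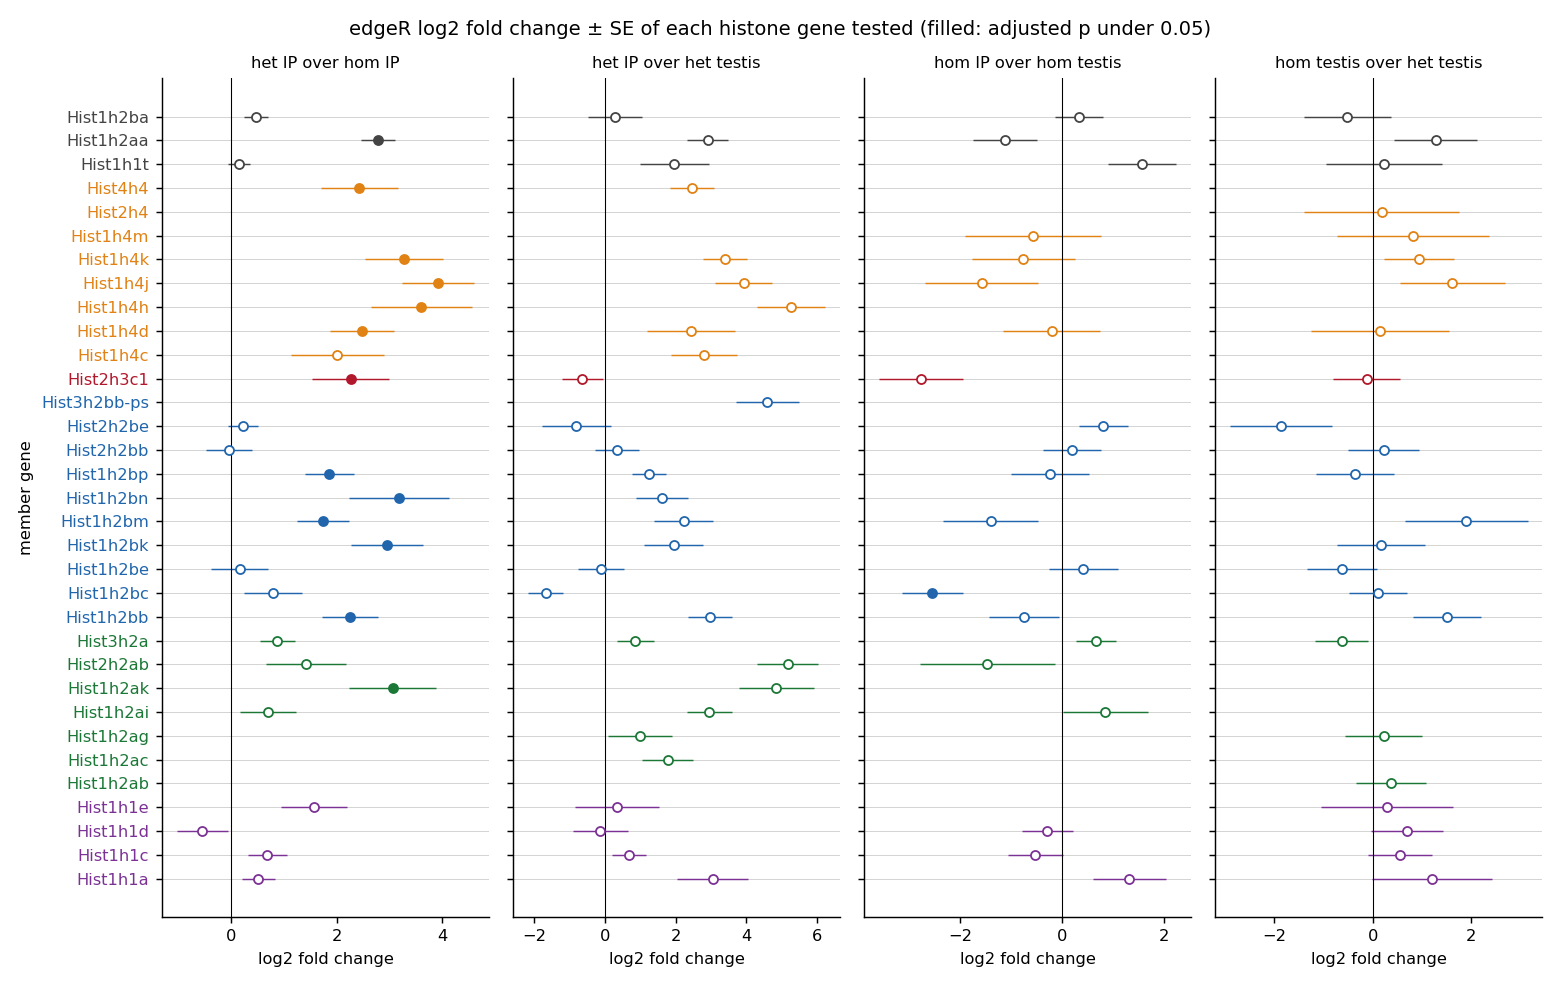
edgeR log2 fold change ± SE of each histone gene that was tested, in 4 comparisons from left to right: het IP over hom IP, het IP over het testis, hom IP over hom testis and hom testis over het testis. Filled points had an adjusted p under 0.05, 13 in the first panel and 1 in the third. Each group of libraries enters 2 of the 4 panels.

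The difference between genotypes in the ratio of IP to testis was tested in 1 fit over the 8 libraries. Of 32 histone genes tested, 0 passed by edgeR (0% of 14180 genes did in either direction). DESeq2 gave an adjusted p to Hist1h1t, Hist1h2ba and Hist3h2a alone among them, each above 0.05. By edgeR 12 had an unadjusted p under 0.05, against 9.68% of all genes. Some of the 32 passed the filter through 1 high group, such as Hist1h4h with 0 and 1 read in het testis, so their count is a description. For Hist1h2aa the difference was 3.97, for Hist1h1t 0.30 and for Hist1h2ba -0.11 on the log2 scale. The standard errors of these 3 values were 1.00, 1.42 and 1.03.

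The third comparison asks whether histone messages differ between hom testis and het testis. No histone gene of 24 tested passed edgeR's test (0% of 14332 genes were higher and 0% lower), none had an unadjusted p under 0.05, where 10.1% of all genes did, and DESeq2 called 0. The authors' deposited table for this comparison has 734 rows, and 0 of them are histone genes of the 62. The median log2 fold change of the 24 was 0.23, beside 0.04 for all genes. Of the 57 histone genes with a read, 8 had both hom testis libraries above both het testis libraries, where 19.8% of all entries did. Both were below in 2 histone genes, and the share of all entries with both below was not counted.

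The 2 libraries of each genotype were far apart. Hist1h1t was at 8.67 and 84.2 CPM in het testis and 13.0 and 96.4 in hom testis, and Hist1h2ba at 142 and 823 and at 206 and 475. In both genes the 2 libraries numbered 1 were below the 2 numbered 2. Hist1h2aa was at 3.17 and 9.07 CPM in het testis and 6.50 and 23.5 in hom testis, a log2 fold change of 1.28 ± 0.85 with adjusted p = 0.693 by edgeR. Of the H2B genes, Hist1h2bb had the smallest p, with 7 and 30 reads in het testis and 32 and 321 in hom testis, a log2 fold change of 1.51 ± 0.70 and adjusted p = 0.539. The others with the smallest p of their type were Hist1h4j at adjusted p = 0.693, Hist3h2a at 0.767, Hist1h1a at 0.804 and Hist2h3c1 at 0.975.

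In the same libraries the 14 elongating spermatid markers summed to 9010 and 36800 CPM in het testis and 2209 and 3064 in hom testis. These sums are on the scale of that comparison. The median log2 fold change of the 14 was -4.64, and 0 of them passed edgeR's test. On the same scale 28 DNA replication genes summed to 443 and 669 CPM in het testis and 589 and 909 in hom testis. The median log2 fold change of the 27 tested was 0.31. Fold changes of the 24 histone genes ran from -1.86 for Hist2h2be to 1.90 for Hist1h2bm.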

How the data were processed

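Tables of whole-number read counts per gene were deposited by the authors, 1 for each of 3 pairs of groups. The 4 columns that occur in more than 1 table are identical, so the 8 libraries were joined into 1 table. STAR, DESeq and the build mm9 are named per the submitters' processing notes, without their roles. Neither the counting settings nor the annotation is stated.

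The 62 genes were found by symbol. The genes, the lists and the rule for naming single genes were chosen with earlier results of these data known. Each comparison was fitted with edgeR 4.0.16 (TMM scaling, filterByExpr, quasi-likelihood F-test) on its own 4 libraries, and the difference between genotypes in the ratio of IP to testis on all 8. P-values were adjusted by Benjamini-Hochberg over all genes tested, with a threshold of 0.05. DESeq2 1.42.0 (R 4.3.3) was an alternative, beside other scalings, no filter on low counts, a replicate block, 1 fit over 8 libraries and leaving out each library. The script was tested on simulated counts. Single genes were named by rule: the testis forms, in each comparison up to 3 called genes per type or else that with the smallest p, and the highest and lowest of each type.

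Stem-loops, shared sequence and transcript length come from GENCODE M21 (GRCm38), with 62 of 62 symbols matched, and promoters from RefSeq (GRCm38.p6), with 56 of 62 matched. Depth bounds the precision: 20 of the 62 genes had under 30 reads in the 8 libraries together, and limits for 0 reads use 3 counts and cover counting error alone. Transposon tables were not used here.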

Additional observations from a re-analysis of the deposited data

How the results depend on the processing

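Histone genes called in het IP against hom IP numbered 13, and 6 by DESeq2 and 0 in 1 fit over 8 libraries. Leaving out 1 library gave 5 to 23, and medians of 1.16 to 2.95. In het IP against het testis 0 were called, and 5 by DESeq2, 10 with a replicate block and 0 to 26 with 1 library left out, with medians of 1.51 to 3.75. All genes called higher there were 245 by DESeq2, 128 of 13562 with the block and 4 to 3732 with 1 library left out. In hom IP against hom testis 1 was called, and 2 with library totals alone, 2 without the filter, 2 with a replicate block and 0 in 1 fit over 8 libraries. Without the filter 1 was higher and 1 lower, beside 712 higher and 757 lower of all 18035 genes. The block also gave 1 higher and 1 lower, beside 595 and 415 of 13334. The fit over 8 libraries called 50 higher and 1 lower of 14180 genes. Leaving out 1 library moved the calls of this comparison too, for histone genes as for all genes. Without the replicate 1 library of hom testis more histone genes were called lower in hom IP. Without its replicate 2 library some were called higher. These fits assume that a lone library varies like the others. Between the testis groups 0 were called. Leaving out 1 library moved the calls of all genes there, and in some of these fits those of histone genes. The medians of the histone genes then ran from -0.034 to 1.83. In the test of genotype in the ratio of IP to testis no setting called a histone gene, and leaving out 1 library gave medians of 0.85 to 4.83.

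The replicate numbers shared between groups are not said to pair samples. Replicate differences correlated at 0.546 between the testis groups and at -0.111 between hom testis and hom IP. A crossed replicate block there, added after seeing the data, called 4 in place of 1. Of these 2 were higher and 2 lower, beside 956 higher and 831 lower of all 13334 genes. The replicate block moved 13 calls to 14 in het IP against hom IP, beside 2565 higher and 1960 lower of all 13427 genes.

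Scaling by library totals alone moved the median of all genes to 0.53 between the testis groups, 0.30 between the IP groups, 0.32 and -0.46 in IP against testis of heterozygotes and homozygotes, and 0.87 in the genotype test. It turned Hist1h2ba to 0.055 and Hist2h3c1 to 0.28 between the testis groups, Hist1h2ba to -0.046 in homozygotes and Hist1h2ba to 0.78 in the genotype test, where it was 0.032 without the filter. None of these was called in either fit. Leaving out 1 library also turned signs. Between the testis groups Hist1h1t ran from -1.78 to 2.67, Hist1h2ba from -1.30 to 1.27, Hist1h1a from -0.70 to 4.25, Hist2h3c1 from -0.52 to 0.34 and Hist1h4j from -0.034 to 3.70. Hist1h1t ran from -0.056 to 0.37 between the IP groups and from -1.70 to 2.74 in the genotype test. Hist1h2ba ran from -0.53 to 1.93 in heterozygotes, from -0.16 to 0.97 in homozygotes and from -0.89 to 1.66 in the genotype test. In homozygotes Hist1h2aa ran from -1.78 to 0.009 and Hist1h4j from -9.66, against a lone library at 0 reads, to 0.08. Among all genes, calls between the testis groups were 0 by edgeR and 22 higher and 693 lower by DESeq2, and 105 and 838 with the replicate block. With 2 libraries a group and 20 genes under 30 reads in all, small differences were not detectable at this depth.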
